A study of Mus musculus with 6 samples.

Results

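Membrane trafficking genes of the Rab, Vps and Snx families were read in pre-B cells that lacked Mef2c and set against controls. The genes were chosen by name alone: a Rab followed by a number and at most a letter and a digit, a Vps followed by a number, or a Snx followed by a number, on a probe set annotated with 1 symbol. The rule found 118 of the 17372 named genes, comprising 57 Rab, 33 Vps and 28 Snx genes, and each was represented by its brightest probe set. Of these, 95 (40 Rab, 31 Vps and 24 Snx genes) were bright enough to be tested among 11271 genes in all, by a filter on the mean over both groups. Every member but Vps52 had a single such probe set among the values used, so a dim reading does not show that a gene is silent.

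The Mef2c-deficient cells came from Vav-Cre Mef2cfl/fl mice, in which both copies of Mef2c carry loxP sites and Cre is driven by the Vav promoter, so that recombination takes place in all blood-forming cells and not in the B lineage alone. The other group is labelled control. Per the study's methods, controls were Mef2cfl/fl, Mef2cfl/+ or Vav-Cre Mef2cfl/+ mice of the same age, and which of these gave each array is not stated in the sources used here. Pre-B cells, which rearrange their immunoglobulin light chain genes in the bone marrow, were sorted as B220+IgM-CD43- cells from mice aged 9 months, and RNA of 3 samples per group was hybridised to Affymetrix arrays. The samples are described as independent but no animal is named for any of them, so p-values speak only of the spread among these 6 arrays, whose small number limits precision. The level of Mef2c was not analysed here, and the arrays gave no check of the deletion.

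Rab proteins are small GTPases that mark membranes: in the GTP-bound state each is held on a particular organelle and recruits motors, tethers and other effectors, and exchange factors and GTPase-activating proteins switch it on and off. Vps proteins, named after yeast mutants that missort vacuolar enzymes, form the tethers, the retromer coat and the ESCRT machinery that sort cargo between endosome, Golgi and lysosome. Sorting nexins (Snx) carry a PX domain that binds phosphoinositides, and those with a BAR domain also bend the endosomal membrane into tubules. In B cells these routes carry surface immunoglobulin from the Golgi to the plasma membrane, return receptors to it and deliver internalised antigen to lysosomes.

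Values are given as log2 of the deposited value, and differences as Mef2c-deficient minus control. The deposited values were already off the log scale and reached 2144602, and 2865 of 143478 lay above 65535, the highest reading of a 16-bit scanner. The base from which they had been raised is therefore not settled, and if it was e, every log2 difference below is 0.69 times that printed, with its p unchanged. The level of 1 probe set was not compared with that of another. The median deposited value was 277 to 285 in the Mef2c-deficient arrays and 236 to 268 in the control arrays. Log2 values of all 23913 probe sets, tested or not, correlated at 0.937 to 0.968 (Pearson's r) between Mef2c-deficient arrays and at 0.976 to 0.991 between control arrays. The probe sets for the spiked-in bioB transcript averaged 15.5 to 17.06 in the Mef2c-deficient arrays and 14.26 to 14.58 in the control arrays. Summed B lineage markers (10 of 12 listed were on the table) reached 1340000 to 2220000 in Mef2c-deficient and 1940000 to 2530000 in control arrays, so both groups carried them. Summed plasmacytoid dendritic cell markers (9 of 11) were 459000 to 1460000 in Mef2c-deficient and 171000 to 461000 in control arrays. Summed neutrophil markers (8 of 8) were 46000 to 1290000 in Mef2c-deficient and 34100 to 178000 in control arrays, and summed monocyte markers (7 of 8) 6560 to 199000 in Mef2c-deficient and 7030 to 30300 in control arrays. In the lists of these 3 other cell types Mef2c-deficient replicate 3 was the highest array, as it was for T cell markers (6 of 7), which summed to 2040 to 20000 in Mef2c-deficient and 868 to 2280 in control arrays. Summed plasma cell markers (5 of 6) were 55700 to 72200 in Mef2c-deficient and 85000 to 106000 in control arrays, without overlap. The 5 plasma cell genes did not share a direction. Sdc1 (-2.36), Slamf7 (-2.15) and Prdm1 (-0.18) had a lower mean, and Jchain (0.46) and Xbp1 (0.78) a higher one. The part of these markers in the results below was not tested. In bulk samples, fewer cells of a type and less RNA per cell cannot be told apart.

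No Rab, Vps or Snx gene passed the threshold of 0.05 on the adjusted p (limma, Benjamini-Hochberg over all 11271 genes), in either direction. The smallest adjusted p of the 95 was 0.0934, for Rab3a. Over all genes tested, 0.0177% passed as lower and 0% as higher. At unadjusted p under 0.05, 19 of the 95 were lower and 4 were higher, against 20.9% and 5.32% of all genes. With the replicate number as a block, 19 were lower and 2 higher, and the shares of all genes at that p under the block are not given here. The study's own thresholds ask for at least a 2-fold difference with an unadjusted p no greater than 0.05, and at these 13 of the 95 (13.7%) were lower in Mef2c-deficient cells, where 14.7% of all genes were. At those thresholds 2 of the 95 (2.11%) were higher, against 2.64% of all genes. With the block, 15.8% of members were lower and 2.11% higher at those thresholds, against 16.4% and 3.98% of all genes. Members past those thresholds are termed called below. Groups did not overlap for 30 members that were lower (31.6%, against 27.1% of all genes) and for 9 that were higher (9.47%, against 10.6%). The shares called were near those of all genes, so the counts describe these genes without setting them apart.

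The median log2 difference of the 95 genes was -0.48, and that of all genes was -0.36. The mean was lower in Mef2c-deficient cells for 65 genes (68.4%, against 62.3% of all genes) and higher for 30, with differences between -1.73 and 1.46. By family, the median was -0.44 over the Rab genes, -0.67 over the Vps genes and -0.38 over the Snx genes. The Rab genes had 7 called lower and 1 called higher, the Vps genes 4 and 0, and the Snx genes 2 and 1. Of the 31 Vps genes, 24 had a lower mean in Mef2c-deficient cells. Because the median of all genes lay below 0, the split of the calls followed the scaling of the arrays: 86.7% of the members' calls were lower with the values as deposited, 57.1% after quantile normalization, 40% after cyclic loess, 62.5% with array medians centred, and 30% with the genes tested centred, a setting added after the data were seen. The plot of called shares by scaling gives both directions beside all genes.

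**Figure D1:**
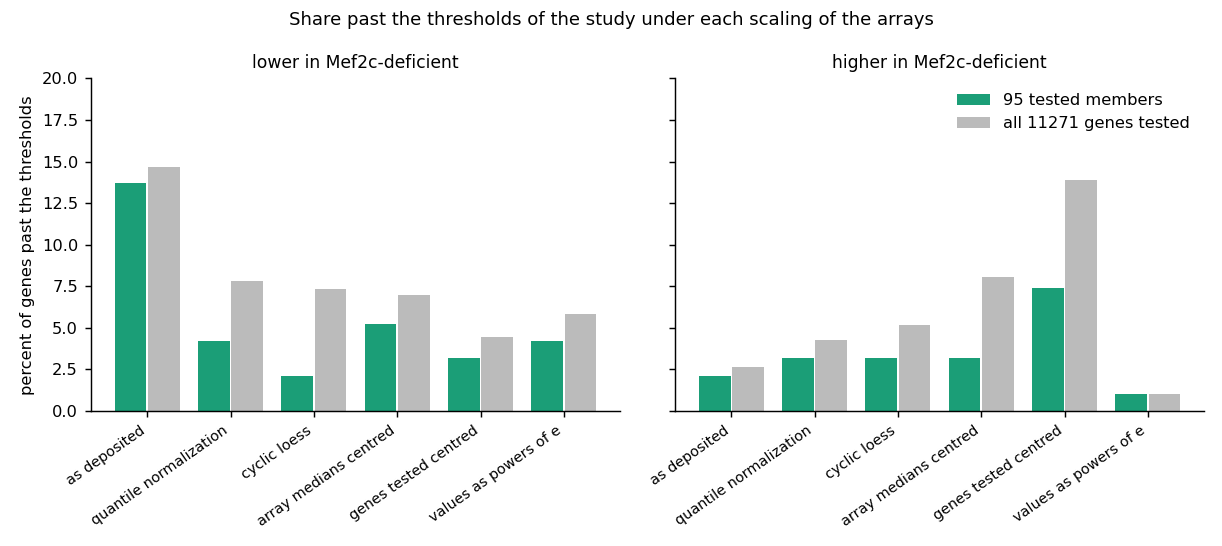
Percent of the 95 tested Rab, Vps and Snx genes (green) and of all 11271 genes tested (grey) past the study's thresholds, lower (left) and higher (right) in Mef2c-deficient cells, for the values as deposited and 5 other scalings. As deposited, 13.7% of members were called lower, against 14.7% of all genes, and the members' bar is below that of all genes under each scaling, except on the higher side with values as powers of e, where both are about 1%.

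Along the plot of difference against p, the 3 members with the smallest p, Rab3a, Rab23 and Vps26c, all lay on the lower side, and Rab6b lay farthest out on the higher side. The standard error of a difference ran from 0.26 to 1.37 over the members, so differences of equal size carried different weight. Rab5b, at -1.59 with a standard error of 1.25, and Vps26b, at -0.98 with the largest standard error of 1.37, were not called. Rab5b was lower in each same-numbered pair of arrays, and with the replicate number as a block its standard error was 0.55 and it was called lower (adjusted p = 0.131, limma), as was Vps72 (adjusted p = 0.159).

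**Figure D2:**
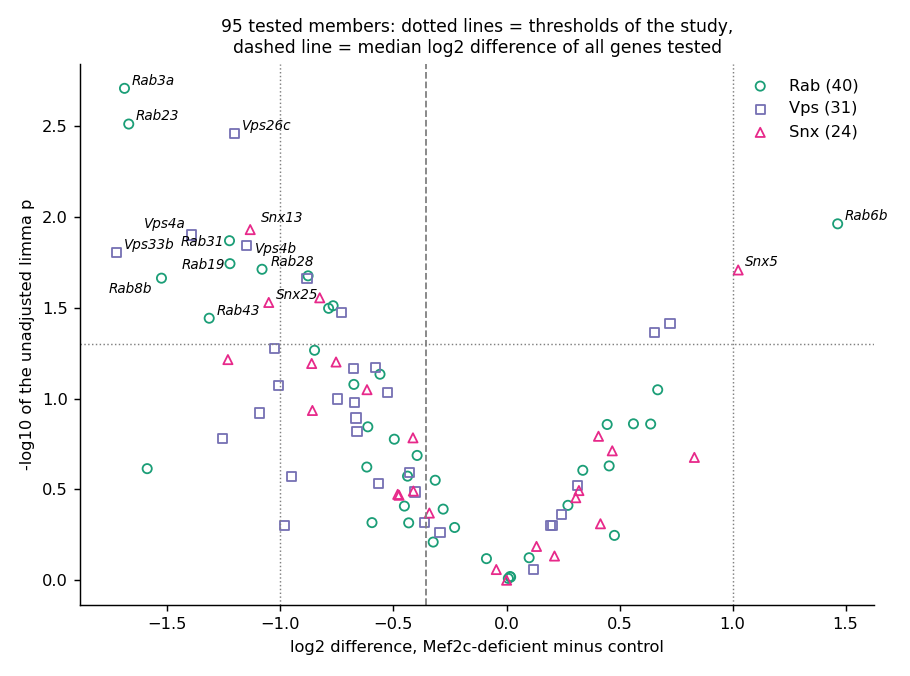
Log2 difference (Mef2c-deficient minus control, x axis) against -log10 of the unadjusted limma p (y axis) for the 40 Rab (circles), 31 Vps (squares) and 24 Snx (triangles) genes tested. The 13 called lower stand at the upper left and the 2 called higher, Rab6b and Snx5, at the upper right, with the dashed line at the median of all genes, -0.36.

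MEF2C is a transcription factor that binds an A/T-rich motif, so the 250 bases before the start of each member were searched for it on both strands. Of the 118 members, 85 had a promoter in the RefSeq table (mouse build GRCm38.p6). The MEF2 motif was found before 2 of the 85 (2.35%), Rab14 and Vps41, where 1.99% of all 27025 genes held it, and before 0 of the 14 called members that had a promoter. Only these 250 bases were searched, so a missing match does not show that MEF2C leaves a gene unbound. The paper places most MEF2C sites of human B-lymphoblasts far from gene starts, and those of mouse B-cell progenitors at promoters and distal regions. The 2 matches are shown with their surroundings because MEF2C is the protein removed. They are written on the gene's strand with the motif in capitals, and both matched on the opposite strand, at chr2:35201278-35201367 (minus strand, motif starting 207 bases before the gene start) and chr13:18717119-18717208 (plus strand, 133 bases).
Rab14: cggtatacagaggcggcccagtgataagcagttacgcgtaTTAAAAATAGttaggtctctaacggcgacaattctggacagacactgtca
Vps41: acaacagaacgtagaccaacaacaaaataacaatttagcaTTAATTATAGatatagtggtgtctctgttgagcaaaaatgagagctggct
Rab14, which works between Golgi and endosomes, measured 10.26, 10.65 and 10.52 in Mef2c-deficient arrays, against 10.12, 9.91 and 10.07 in control arrays. Vps41, a subunit of the HOPS tether, measured 12.68, 12.60 and 11.85 in Mef2c-deficient arrays, against 13.11, 12.96 and 13.10 in control arrays. The groups did not overlap for either gene, the first standing higher in Mef2c-deficient cells by 0.45 and the second lower, at -0.68, with adjusted p of 0.288 and 0.213 (limma).

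The same windows were searched for TCACGTGA, the core of the motif that TFEB and TFE3 bind before lysosomal genes. It was present before 4 of the 85 members (4.71%), Rab5a, Vps16, Vps26a and Vps33a, against 0.907% of all genes, and before 0 of the 14 called. For motifs, all genes are the 27025 with a promoter, whether or not tested on the arrays, and members differ from them in GC boxes as well (below). The sequences before these 4 members are shown because the genes act at endosomes or lysosomes. Rab5a acts at the early endosome, Vps16 and Vps33a in tethering at late endosome and lysosome, and Vps26a in return by retromer. The windows are chr17:53479098-53479185 (plus strand), chr2:130424261-130424319 (plus), chr10:62486703-62486790 (minus) and chr5:123573016-123573084 (minus), with each copy of the motif in capitals. Vps26a has 2 promoters that hold it, of which 1 is shown.
Rab5a: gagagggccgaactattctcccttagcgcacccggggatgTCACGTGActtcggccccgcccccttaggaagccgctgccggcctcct
Vps16: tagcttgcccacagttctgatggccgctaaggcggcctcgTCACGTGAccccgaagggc
Vps26a: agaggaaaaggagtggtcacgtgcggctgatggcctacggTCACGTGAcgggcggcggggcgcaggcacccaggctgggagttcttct
Vps33a: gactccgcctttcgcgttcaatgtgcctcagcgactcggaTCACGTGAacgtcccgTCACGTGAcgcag
The log2 differences of these 4 genes were -0.40 (Rab5a), -0.57 (Vps16), -0.36 (Vps26a) and -0.95 (Vps33a), none of them called. GGGCGG, the GC box, stood before 60 of the 85 members (70.6%, against 35.4% of all genes) and before 10 of the 14 called, and TATAAA before 6 (7.06%, against 14.3%) and 0 of the called. CCAAT stood before 34 (40%, against 37.5%) and 6 of the called. A match is a run of letters and does not show that a factor was bound there.

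Among Rab genes that serve secretion and delivery to the plasma membrane, 8 were tested, 6 had a lower mean in Mef2c-deficient cells and 2 were called lower. Rab3a, which acts in the exocytosis of secretory vesicles, measured 10.13, 9.96 and 9.78 in Mef2c-deficient arrays, against 11.36, 11.24 and 12.33 in control arrays. The groups did not overlap, and all 3 Mef2c-deficient arrays lay more than 1 log2 unit below every control array. The difference was -1.69 (SE 0.36, adjusted p = 0.0934 by limma), or 3.23-fold on the deposited scale. Its probe set is of the kind whose probes can bind other transcripts, so the value is uncertain in that respect, and it was called in 19 of 20 alternatives, all that kept the probe set. Rab8b, which carries Golgi-derived vesicles to the cell surface, measured 11.21, 11.86 and 13.09 in Mef2c-deficient arrays, against 13.25, 13.28 and 14.21 in control arrays. Mef2c-deficient replicate 3 stood next to the lowest control there, and the difference was -1.53 (SE 0.53, adjusted p = 0.146). Of the others, Rab37, a secretory granule Rab, measured 8.05, 9.34 and 8.64 in Mef2c-deficient arrays and 9.60, 9.49 and 9.49 in control arrays without being called, while Rab27a, needed for lytic granule release, overlapped between groups (-0.62). Rab8a was too dim on its single probe set to be tested.

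Early endosomal Rab genes had a median of -0.88 over the 5 tested. Rab31, which acts between the trans-Golgi network and endosomes, was called lower. It measured 8.66, 9.15 and just under 10 in Mef2c-deficient arrays, against 10.46, 10.48 and 10.55 in control arrays. The control arrays were tightly grouped and the Mef2c-deficient arrays spread over more than 1 log2 unit below them, giving a difference of -1.23 (SE 0.38, adjusted p = 0.131, limma). Rab22a, its close relative on early endosomes, measured 13.33, 13.15 and 12.87 in Mef2c-deficient arrays and 13.92, 13.71 and 14.35 in control arrays, a difference of -0.88 that was short of 2-fold. The 3 Rab5 genes, which govern fusion of early endosomes, did not share a direction: Rab5a differed by -0.40 and Rab5b by -1.59, and Rab5c by 0.67. Rab5c measured 12.32, 12.21 and 13.04 in Mef2c-deficient arrays and 12.10, 11.49 and 11.97 in control arrays, without overlap (adjusted p = 0.239). Rab5b measured 6.48, 9.49 and 11.33 in Mef2c-deficient arrays and 9.69, 9.87 and 12.50 in control arrays, a range wider than the difference.

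The 11 tested Rab genes of the endoplasmic reticulum and Golgi held both directions, with 2 called lower and 1 called higher. Rab6b, a form of Rab6 known mainly from neurons that acts in retrograde Golgi transport, measured 8.86, 8.62 and 9.45 in Mef2c-deficient arrays, against 6.93, 7.27 and 8.33 in control arrays. It was the member with the largest positive difference, 1.46 (SE 0.44, adjusted p = 0.124), and the groups did not overlap. The values of control replicates 1 and 2 lay near the filter of 7.26, however. With all genes split by mean level into 3 equal sets, Rab6b fell in the dim set, whose median difference over all genes was 0.26. Rab6a, the widely expressed form, measured 12.32, 12.69 and 12.40 in Mef2c-deficient arrays, against 13.43, 12.92 and 13.37 in control arrays, a difference of -0.77 (SE 0.29, adjusted p = 0.160) in the other direction. The groups did not overlap for either form. Rab19 measured 11.28, 10.45 and 9.78 in Mef2c-deficient arrays, against 11.76, 11.70 and 11.72 in control arrays (difference -1.22, SE 0.41, adjusted p = 0.139). Rab43, a Golgi Rab, measured 10.95, 10.65 and 10.67 in Mef2c-deficient arrays, against 11.87, 11.13 and 13.22 in control arrays. Control replicate 3 stood more than 1 log2 unit above the other 5 arrays for Rab43, and the difference of -1.32 (SE 0.52, adjusted p = 0.169) was no longer called without that array or without any of 4 others. Rab2b and Rab18 were lower without overlap, at -0.79 and -0.56. Rab1a and Rab1b, which act between endoplasmic reticulum and Golgi, overlapped between the groups, with differences of 0.45 and -0.45.

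The remaining Rab genes included 2 further calls. Rab23, known in mouse as a negative regulator of Hedgehog signalling, measured 7.38, 7.84 and 6.68 in Mef2c-deficient arrays, against 9.27, 9.12 and 8.52 in control arrays. The groups were clearly apart at -1.67 (SE 0.39, adjusted p = 0.0963), although the Mef2c-deficient values lay near the filter of 7.26. Rab28, associated with cilia, measured 10.18, 11.35 and 10.94 in Mef2c-deficient arrays, against 12.00, 11.66 and 12.05 in control arrays (difference -1.08, SE 0.36, adjusted p = 0.140). Recycling Rab genes had no call among 7 and a median of 0.02, with Rab11a at -0.43, Rab11b at -0.68, Rab4b at 0.27 and Rab35 at -0.09. The late endosomal and lysosomal Rab genes also had no call, among 6. Rab7, which directs late endosomes to lysosomes, measured 15.37, 15.31 and 15.05 in Mef2c-deficient arrays and 15.64, 15.36 and 15.68 in control arrays, with overlap (difference -0.32). Rab20, found on phagosomes, and Rab7b stood higher at 0.64 and 0.56, also with overlap.

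**Figure D3:**
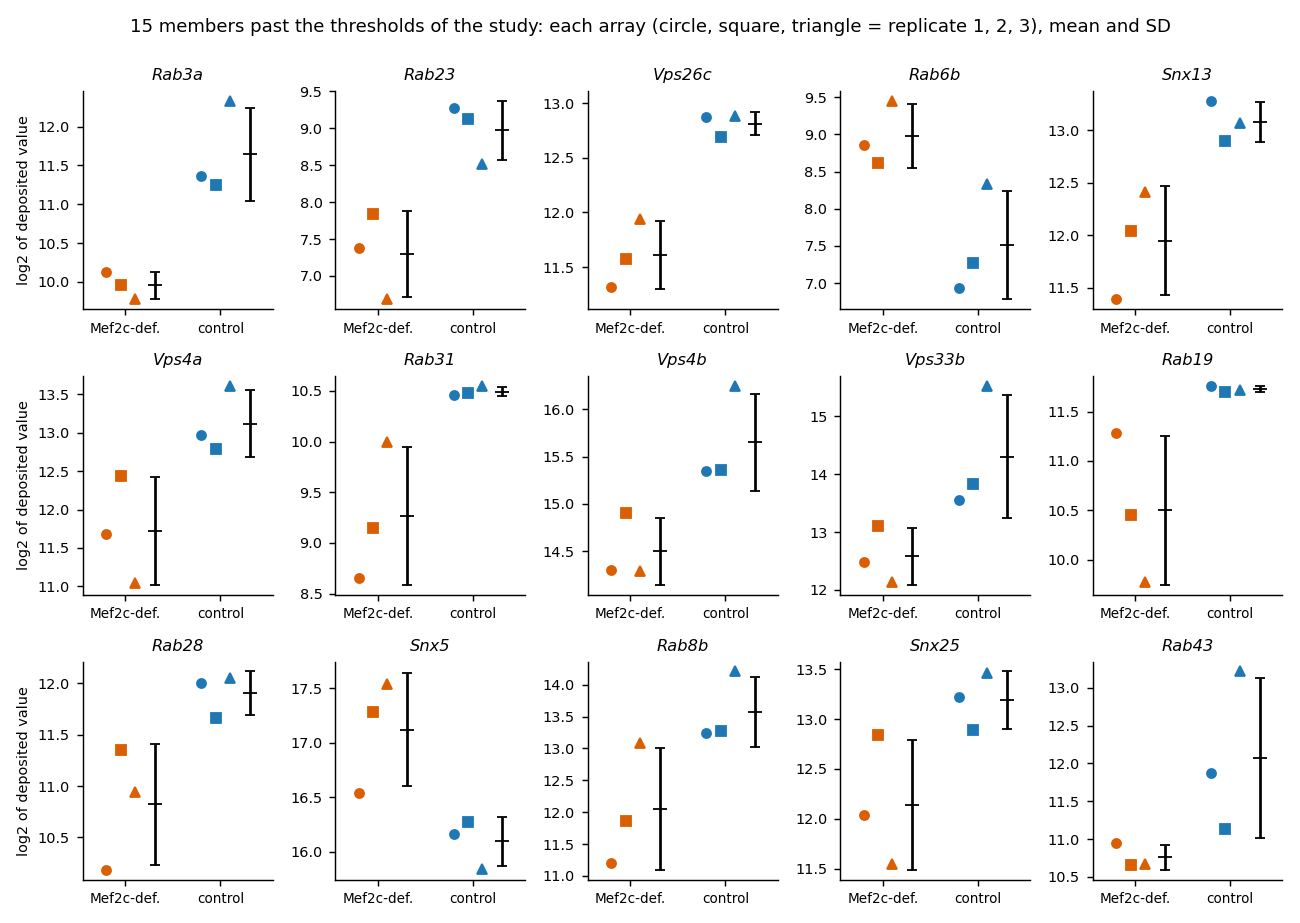
Log2 of the deposited value (y axis, its own range in each panel) of the 15 called members in the 3 Mef2c-deficient arrays (orange, left) and the 3 control arrays (blue, right), with mean and SD as black bars, in order of p. For each of the 15 the groups do not overlap, and Rab6b and Snx5 are the 2 panels in which the Mef2c-deficient arrays are higher.

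ESCRT genes encode the complexes that bud vesicles into the endosome lumen and cut membrane necks, and 6 of the 8 tested had a lower mean in Mef2c-deficient cells. Both genes for the ATPase that takes ESCRT-III filaments apart were called lower. Vps4a measured 11.68, 12.44 and 11.04 in Mef2c-deficient arrays, against 12.97, 12.78 and 13.60 in control arrays. Its difference was -1.39 (SE 0.43, adjusted p = 0.129, limma). Vps4b measured 14.30, 14.91 and 14.29 in Mef2c-deficient arrays, against 15.35, 15.36 and 16.25 in control arrays, with a difference of -1.15 (SE 0.36, adjusted p = 0.133). For both, every Mef2c-deficient array lay below every control array, and control replicate 3 was the highest. Vps36, of ESCRT-II, measured 10.75, 10.83 and 10.84 in Mef2c-deficient arrays and 11.20, 11.70 and 11.71 in control arrays, a difference of -0.73 with tight replicates (adjusted p = 0.165). In ESCRT-I, Vps37a, Vps37b and Vps37c had differences of -0.40, -0.66 and -1.01 and Vps28 of 0.24, none of them called. Outside the name rule, 20 further ESCRT genes were tested, of which 18 had a lower mean (90%, against 62.3% of all genes), 5 were called lower (25%, against 14.7%) and 0 higher, and 0 passed the adjusted threshold. Stam2, which sorts ubiquitylated receptors, stood at -1.78 and Ist1, an ESCRT-III-like protein that binds VPS4, at -1.36 (adjusted p of 0.122 and 0.125).

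The HOPS and CORVET tethers bring endosomes and lysosomes together before fusion, and of 6 subunits tested 5 had a lower mean and 0 were called. Vps33b, grouped with them here, was called lower. It is a relative of the HOPS subunit Vps33a that works with a separate partner in lysosome-related organelles, and measured 12.49, 13.11 and 12.15 in Mef2c-deficient arrays, against 13.55, 13.84 and 15.52 in control arrays. Its difference of -1.73 (SE 0.55, adjusted p = 0.135) was the largest in size of any member. Control replicate 3 stood more than 1 log2 unit above the other arrays, and the gene was still called lower without it. Vps18, Vps39 and Vps41 had differences of -0.67, -0.67 and -0.68 without a call, and Vps8, a CORVET subunit, of 0.31. Vps11, a core subunit, was too dim to be tested, with 6.16, 7.17 and 5.42 in Mef2c-deficient arrays and 7.40, 7.75 and 8.44 in control arrays. It was the 1 gene among the 23 untested members (4.35%) whose groups did not overlap with the Mef2c-deficient arrays lower, against 3.23% of all 6101 genes below the filter. In 6 others (26.1%), Rab2a, Rab34, Rab38, Rab9b, Rab27b and Rab3d, the Mef2c-deficient arrays were all higher, against 25.5% of those genes, so the dim members leaned upward about as often as other dim genes. The GARP and EARP tethers, which receive vesicles at the Golgi and recycling endosomes, had a median of 0.12 over 5 genes. Vps54, the GARP subunit, measured 10.46, 10.49 and 10.60 in Mef2c-deficient arrays and 9.87, 10.07 and 9.63 in control arrays (0.65, adjusted p = 0.180), while Vps50, the EARP subunit, measured 9.23, 9.10 and 8.86 in Mef2c-deficient arrays and 9.83, 9.57 and 9.53 in control arrays (-0.58, adjusted p = 0.212). The groups did not overlap for either, and the directions were opposite. Vps52, shared by both complexes, was the 1 member with 2 probe sets above the filter, and these differed in sign. The probe set used gave 0.12, with Mef2c-deficient replicate 1 the highest array at 14.06, and the other gave -0.41. The median of the 5 tethering genes was the value of Vps52 itself, so its sign turned on the choice of probe set.

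Retromer returns receptors from endosomes to the Golgi or cell surface, and its genes did not share a direction. Vps29 measured 8.13, 8.65 and 8.20 in Mef2c-deficient arrays, against 7.64, 7.76 and 7.40 in control arrays, a difference of 0.72 (SE 0.29, adjusted p = 0.173) without overlap. Its control values lay near the filter of 7.26, and like Rab6b it fell in the dim set, whose median difference over all genes was 0.26. Vps35, Vps26a and Vps26b were lower by their means, at -0.43, -0.36 and -0.98, and overlapped between the groups. Vps26b ranged over 5.65, 8.12 and 11.74 within the Mef2c-deficient arrays. The sorting nexins that form its tubules likewise differed among themselves. Snx5 measured 16.54, 17.28 and 17.54 in Mef2c-deficient arrays, against 16.17, 16.27 and 15.85 in control arrays. It was called higher (1.02, SE 0.35, adjusted p = 0.140), although not without control replicate 1 or 3 or Mef2c-deficient replicate 2 or 3. Snx1, which pairs with Snx5 or Snx6, measured 12.86, 13.14 and 13.58 in Mef2c-deficient arrays, against 14.22, 13.99 and 13.86 in control arrays, a difference of -0.83 (SE 0.30, adjusted p = 0.156). The groups did not overlap for Snx1 or Snx5. Snx6, the close homologue of Snx5, measured 10.36, 11.15 and 9.90 in Mef2c-deficient arrays and 11.12, 11.75 and 11.13 in control arrays, a difference of -0.86 with a slight overlap. Snx2 overlapped, at -0.41. Snx32 differed by less than 0.01.

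Retriever is a complex related to retromer that returns other cargo to the cell surface. Its members Vps26c and Vps35l had a lower mean, while Vps29, which it shares with retromer, stood higher (0.72, above). Vps26c measured 11.32, 11.57 and 11.94 in Mef2c-deficient arrays, against 12.88, 12.69 and 12.88 in control arrays. The replicates of each group were close together and far from the other group, with a difference of -1.20 (SE 0.29, adjusted p = 0.0975). Vps35l measured 12.23, 11.84 and 10.93 in Mef2c-deficient arrays and 12.62, 12.06 and 12.57 in control arrays, with overlap (-0.75). Snx17, the adaptor that hands cargo to retriever, measured 18.51, 17.40 and 16.01 in Mef2c-deficient arrays and 16.96, 17.49 and 16.84 in control arrays. Its Mef2c-deficient arrays lay on both sides of the control arrays, and the difference of 0.21 turned to -0.39 without Mef2c-deficient replicate 1. Snx27, the PDZ-domain adaptor for retromer, overlapped, at -0.86.

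**Figure D4:**
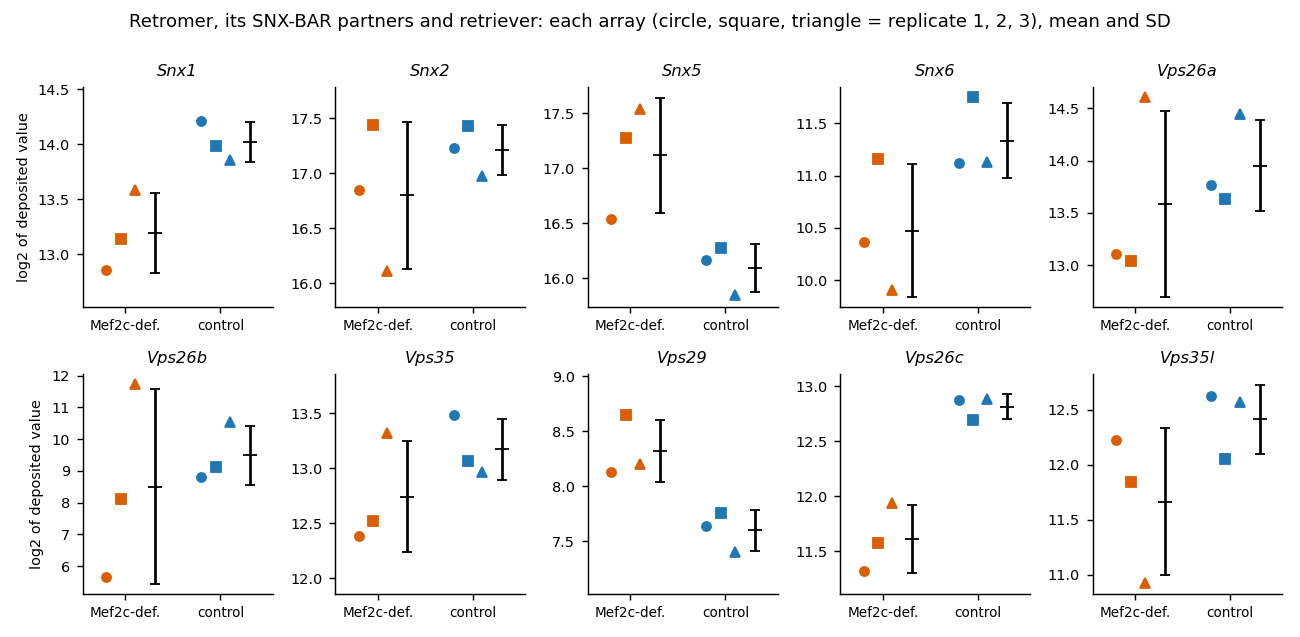
Log2 of the deposited value (y axis, its own range in each panel) of the retromer genes, their SNX-BAR partners and the retriever genes in the 3 Mef2c-deficient arrays (orange, left) and 3 control arrays (blue, right), with mean and SD as black bars. Snx5 and Vps29 are higher and Snx1 and Vps26c lower in Mef2c-deficient cells without overlap, and Vps26b spreads from 5.65 to 11.74 within the Mef2c-deficient arrays.

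The sorting nexins with an RGS homology domain gave both of the Snx calls on the lower side. Snx13 measured 11.39, 12.04 and 12.41 in Mef2c-deficient arrays, against 13.28, 12.89 and 13.07 in control arrays, a difference of -1.13 (SE 0.34, adjusted p = 0.127) without overlap. Snx25 measured 12.04, 12.84 and 11.54 in Mef2c-deficient arrays, against 13.23, 12.89 and 13.46 in control arrays, a difference of -1.05 (SE 0.39, adjusted p = 0.158). Mef2c-deficient replicate 2 and control replicate 2 nearly met for Snx25, and its call was among the least stable of the 15, kept in 9 of 20 alternatives. Snx14, of the same subfamily, measured 10.34, 10.33 and 10.31 in Mef2c-deficient arrays and 9.80, 9.83 and 10.12 in control arrays, higher without overlap (0.41) and not called. The other SNX-BAR genes ranged from -1.23 (Snx30) to 0.83 (Snx18), and the PX-only genes from -0.62 (Snx11) to 0.47 (Snx21), with no call in either subgroup. The VPS13 proteins, which pass lipids between touching membranes, stood at -1.09 (Vps13a), -0.53 (Vps13b) and -1.25 (Vps13c), also with no call. Vps45, which assists SNARE pairing at endosomes, had a difference of -0.88 without overlap. Vps72, at -1.03, meets the name rule although its product is a subunit of chromatin complexes. In the plot of differences by role, the subgroups with medians above 0 were the recycling Rab genes, the other SNX-BAR genes and the GARP and EARP genes. For the GARP and EARP genes this rested on the probe set used for Vps52.

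**Figure D5:**
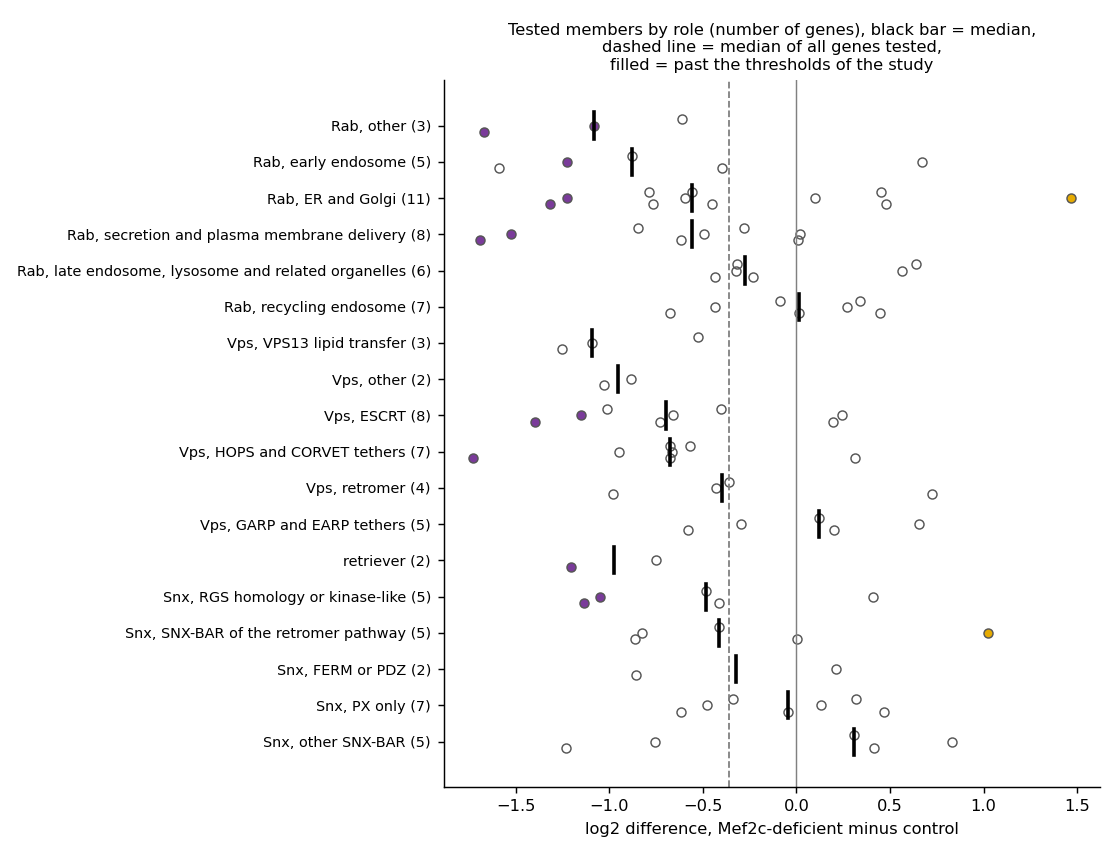
Log2 difference (Mef2c-deficient minus control, x axis) of each of the 95 tested members, grouped by role with the number of genes in brackets, where black bars mark subgroup medians, the dashed line the median of all genes (-0.36) and filled points the 15 called members. Subgroup medians run from -1.09 for VPS13 to 0.31 for the other SNX-BAR genes, and the 2 calls on the higher side lie in the ER and Golgi Rab and the retromer SNX-BAR subgroups.

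Some members set 1 array apart from the rest. Mef2c-deficient replicate 1 stood at least 1 log2 unit above all other arrays for 2 members and below them for 7, and Mef2c-deficient replicate 3 above for 3 (Rab33b, Snx18 and Vps26b) and below for 7. Control replicate 3 stood above the rest for 3 (Rab43, Rab5b and Vps33b), and the other 3 arrays for none. Rab33b measured 12.26, 13.38 and 15.76 in Mef2c-deficient arrays and 13.41, 13.23 and 13.33 in control arrays, so that its mean difference of 0.48 came with a standard error of 0.80. Calls also turned on single arrays. Leaving out Mef2c-deficient replicate 1 ended those of Rab8b, Rab28, Rab31, Rab43, Snx13 and Snx25, leaving out replicate 2 those of Rab8b, Rab43 and Snx5, and leaving out replicate 3 those of Rab19, Rab43, Snx5 and Snx25. Without control replicate 1 the calls of Rab19, Rab28, Rab43, Snx5, Snx13 and Snx25 were lost, without control replicate 3 those of Rab8b, Rab28, Rab43, Snx5, Snx25 and Vps4b, and without control replicate 2 none. Rab3a, Rab6b, Rab23, Vps4a, Vps26c and Vps33b stayed called whichever array was left out. The SD of the members' deviations from their group means was 0.684, 0.415 and 0.761 in the Mef2c-deficient arrays and 0.258, 0.284 and 0.41 in the control arrays. The array with the highest SD, Mef2c-deficient replicate 3, was also that with the highest neutrophil and monocyte marker sums, whose part in these values was not tested. Brightness moved with the differences as well. With all genes split by mean level into 3 equal sets, dim, middle and bright, the median difference was 0.26, -0.54 and -0.56, and over the 20, 31 and 44 members in these sets it was 0.06, -0.66 and -0.46, with 1, 5 and 7 called lower. Of all genes in these sets, 8.49%, 19.6% and 16.1% were called lower.

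Partners of these families outside the name rule were read from lists of 225 genes, of which 173 were tested. Their median difference was -0.51, with 129 lower (74.6%, against 62.3% of all genes) and 44 higher means. Of the partners, 21 were called lower (12.1%, against 14.7% of all genes), 4 were called higher (2.31%, against 2.64%) and 0 passed the adjusted threshold. The share called lower was 11.3% of the regulators, 13.3% of the effectors, 9.09% of the tethering genes and 8.11% of the SNARE genes, each below that of all genes. The 53 regulators of Rab proteins held all 4 calls on the higher side (7.55%) and 6 on the lower. The 4 were Tbc1d16, Rabgap1l, Tbc1d9 and Tbc1d5. Tbc1d9 had a control mean of 6.35, below the filter of 7.26, and was tested because its Mef2c-deficient mean was higher. The control means of Tbc1d16 (7.34) and Tbc1d5 (7.46) lay near the filter. The groups overlapped for Tbc1d9 and Tbc1d5. Rab3ip, an exchange factor for Rab8, measured 9.75, 9.21 and 9.31 in Mef2c-deficient arrays, against 10.87, 11.16 and 12.70 in control arrays, a difference of -2.16 (adjusted p = 0.0961, limma). It stood lower beside Rab8b, with no overlap between groups for either gene. Dennd5b, of the DENN family of exchange factors, differed by -1.34 (adjusted p = 0.0963). Among the 30 effectors, 4 were called lower, including Bicd2, a dynein adaptor that binds Rab6 (-1.22), and Hook1, a motor adaptor of endosomes (-1.30). Of the 33 tethering and class III PI3 kinase genes, 3 were called lower, and the 2 with the smallest p were Trappc2, of the TRAPP complexes (-1.26, adjusted p = 0.0956), and Exoc3, of the exocyst (adjusted p = 0.111, just short of 2-fold). Of the 37 SNAREs and their regulators, 3 were called lower, including Stxbp3, which binds syntaxins (-1.76), and Stx18, a syntaxin of the endoplasmic reticulum (-1.22).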

How the data were processed

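Pre-B-cell RNA from 3 Mef2c-deficient and 3 control samples was analysed from 1 table of 23913 probe sets. The authors deposited intensity values on a linear scale, made by robust multiarray averaging per the labels and methods, and the sources used here do not give its versions. The study's filter by detection calls was not used here. Values were log2-transformed with no offset. The platform annotation gave 17689 probe sets a single symbol, 524 several and 5699 none, and only the first were used, without 25 control probe sets. All 118 members matched RefSeq by gene ID, with 0 symbols changed. Genes with a mean log2 above the 40th percentile (7.26) entered a two-sided fit on group (lmFit and eBayes of limma 3.58.1, R 4.3.3) with Benjamini-Hochberg adjustment over 11271 genes, after a test on simulated data. Same-numbered arrays of both groups shared their deviations from the group mean (correlations of 0.348, 0.226 and 0.373, and -0.309 to 0.129 for other pairs), so the shared numbers in the labels were taken as pairs in an alternative with a replicate block. The text names members called at the study's thresholds, those with the smallest p of each role, the brightest and most changed, and the 2 partners of each list with the smallest p. Other members were named after their values were seen. Members and lists were chosen with earlier results of these data known. Other filters, scalings, probe set rules and variance models were tried (20 alternatives).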

Additional observations from a re-analysis of the deposited data

How the results depend on the processing

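With 3 arrays a group, 0 members passed the adjusted p in any alternative but array weights, under which 8 did (8.42%, against 10.2% of all genes): Rab3a, Rab8b, Rab23, Rab31, Snx1, Snx13, Vps26c and Rab6b. The 13 calls on the lower side became 4 after quantile normalization (median difference of the members -0.21), 2 after cyclic loess (-0.13), 5 with array medians centred (-0.18), 3 with the genes tested centred (-0.0135, with 7 called higher; added after the data were seen) and 4 with values taken as powers of e (-0.33, with 1 called higher). Of all genes, 7.83%, 7.34%, 6.98%, 4.43% and 5.83% were called lower under these scalings, in that order, and 13.9% higher with the genes tested centred. The 60th percentile filter left 1 called higher (1.27%, against 1.92% of all genes) and a median of -0.60. The scalings also move the median of all genes, which was -0.36 as deposited. Leaving out 1 array at a time gave 8 to 17 called lower and 1 to 3 called higher, with 0 past the adjusted p. Called lower were 8 without control replicate 1 or 3 and 9 without Mef2c-deficient replicate 1. Medians ran from -0.54 to -0.38. The shares called lower were 8.42% to 17.9% of members, and those of all genes 9.75% to 17.6%, a similar range. On the higher side, 1.77% to 4.29% of all genes were called. The replicate block gave 15 called lower (15.8%, against 16.4% of all genes) and 2 higher (2.11%, against 3.98%), including all 15 called without it, and added Rab5b and Vps72 on the lower side. At unadjusted p under 0.05 it left 2 higher in place of 4, and it changed no other count of members by over 1.5 times. Rab3a, Rab23 and Rab6b kept their call in 19 of 20 alternatives, the first losing it when probe sets open to cross-hybridisation were left out and Rab23 and Rab6b under the stricter filter, which drops them. Vps35 changed sign after quantile normalization (0.0035), cyclic loess (0.13) and with the genes tested centred (0.0325), Snx2 with the genes tested centred (0.05) and Snx17 without Mef2c-deficient replicate 1, with -0.39 to 0.86 when any 1 array was left out. The cause was not tested.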
